A study of Rattus norvegicus with 30 samples.

Results

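The step from 6 to 8 days without serum was examined in the REF line of rat embryonic fibroblasts, by setting the 3 libraries of day 8 against the 3 libraries of day 6. These are 6 of the 30 libraries of the series, which also holds unstarved controls and cells starved for 2, 3, 4, 10, 12, 14 or 16 days, with 3 biological replicates in each of its 10 groups. The cells of both days are labelled as carrying no transformation, come from the same line and differ by their days of serum starvation alone, as far as the labels say. All 17353 gene symbols of the deposited table were eligible, and the 8940 with a mean of at least 1 FPKM over the 30 libraries were tested. FPKM are fragments per kilobase of transcript and 1000000 mapped fragments, so levels are given per length. The labels do not say which cultures, plates or days the replicates came from. The p-values measure the spread between libraries of the same group, estimated over all 30 libraries.

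Fibroblasts deprived of serum leave the cell cycle and enter quiescence, a reversible arrest from which they can return when growth factors come back. The series title concerns the depth of that arrest and the part of the lysosome, the organelle that breaks down proteins, lipids and glycans with acid hydrolases kept active by the vacuolar ATPase. Quiescent cells still burn glucose, either through glycolysis to lactate or, when pyruvate dehydrogenase is on, through the mitochondria. Arrested fibroblasts also remodel the collagen-rich matrix around them and secrete proteases, protease inhibitors and growth factor binding proteins.

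The 6 libraries had FPKM sums between 599600 and 673731, and between 8719 and 8777 genes in each were at 1 FPKM or more. The table holds no counts. From the low genes, 1 read was worth an estimated 2.12 and 1.97 times as much FPKM in day 6 replicates 2 and 3 as in day 6 replicate 1, and 0.851, 1.66 and 3.26 times as much in day 8 replicates 1, 2 and 3. By this estimate day 8 replicate 3 was the shallowest. Each value rests on 15 to 46 genes near the commonest ratio, which was assumed to come from equal numbers of reads. Correlations of log2(FPKM + 1) across genes were 0.9862 to 0.989 within day 6, 0.9871 to 0.9911 within day 8 and 0.9814 to 0.9903 between the days, ranges that overlap. Of 14 fibroblast markers 8 were at 1 FPKM or more, led by fibronectin (Fn1), with a summed level of 19730 to 22220 FPKM at day 6 and 18850 to 20600 at day 8. One of the markers, Col1a2, is listed at 0 in all 6 libraries. Of 14 macrophage markers none reached 1 FPKM, and Adgre1, Aif1, Tyrobp, Mrc1, Cx3cr1, Laptm5 and C1qa were listed at 0 throughout. Endothelial markers reached 1 FPKM for 1 of 11 genes (Egfl7), epithelial ones for 1 of 12 (Krt8), adipocyte ones for 2 of 12 and neural and glial ones for 5 of 15 (led by Stmn2). Pparg, Adipoq, Cdh5, Kdr, Epcam, Cdh1, Sox10 and Snap25 were listed at 0 in all 6 libraries. Col1a2 is listed at 0 as well, beside Col1a1 at 1721 ± 146 FPKM at day 6. A listed 0 alone therefore does not show absence.

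Between day 6 and day 8, 64 of 8940 genes rose (0.716%) and 65 fell (0.727%) in limma's moderated test at an adjusted p under 0.05. These 2 shares are the ones to set beside the called members of each gene list below. The median log2 change of all tested genes was 0.0024. The changes were modest: the median size among the 129 called genes was 0.51 on the log2 scale, 51 genes changed by at least 1.5-fold and 7 by at least 2-fold, all on the scale of log2(FPKM + 1), which understates the change of low genes. Among the 7 were the organic anion transporter Slco1a2, the melanosome protein Mlana and the retinol dehydrogenase Rdh16, which rose, and the ubiquitin-conjugating enzyme Ube2c, the nucleotide reductase subunit Rrm2 and the thioredoxin-interacting protein Txnip, which fell. In all, 824 genes passed an unadjusted p of 0.05. The same test called 886 genes (9.91%) from day 4 to day 6 and 136 (1.52%) from day 8 to day 10, comparisons that share libraries with this one.

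The number of calls depended on single libraries. Without day 6 replicate 1 the test called 38 rises and 40 falls, without day 6 replicate 2 it called 35 and 30, and without day 6 replicate 3 it called 47 and 50. Without day 8 replicate 1 it called 35 and 36, without day 8 replicate 2 it called 39 and 41, and without day 8 replicate 3 it called 42 and 38. Of the 129 genes, 50 were called each time 1 of the 6 libraries was left out, 26 under all 18 alternatives tried, and all 129 kept their direction in these 18. In all 129 the libraries of the 2 days did not overlap, beside 16.4% of all genes. Only the alternatives with another scaling could therefore have turned a direction. Among the 26 were C1s, Car3, Gpnmb, Icam1, Id2, Layn, Myh1, Postn, Rcan1, Slco1a2 and Uap1l1, which rose, and Ankrd1, Crip2, Cxcl12, Fam131b, Il1rl1, Itga7, Lsp1, Sdc1, Serpinf1, Srpx, Stc2, Tspan18, Txnip and Ucp2, which fell.

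The largest rises with a mean of at least 5 FPKM included secreted and membrane proteins, enzymes and regulators of transcription. Periostin (Postn), a secreted matrix protein, was at 116, 126 and 138 FPKM at day 6 and 254, 227 and 223 FPKM at day 8. All its day 8 libraries were higher, and the fitted log2 change was 0.88 ± 0.11 (SE; adjusted p = 6.36e-05, limma). The complement protease C1s was at 4.89, 3.56 and 3.39 FPKM at day 6 and 8.62, 8.04 and 8.397 FPKM at day 8, a rise of 0.93 ± 0.11 (adjusted p = 5.41e-05) without overlap. Layilin (Layn), a membrane receptor for hyaluronan, went from 12.6 ± 0.935 to 23.1 ± 1.02 FPKM (SD, n = 3).

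**Figure D1:**
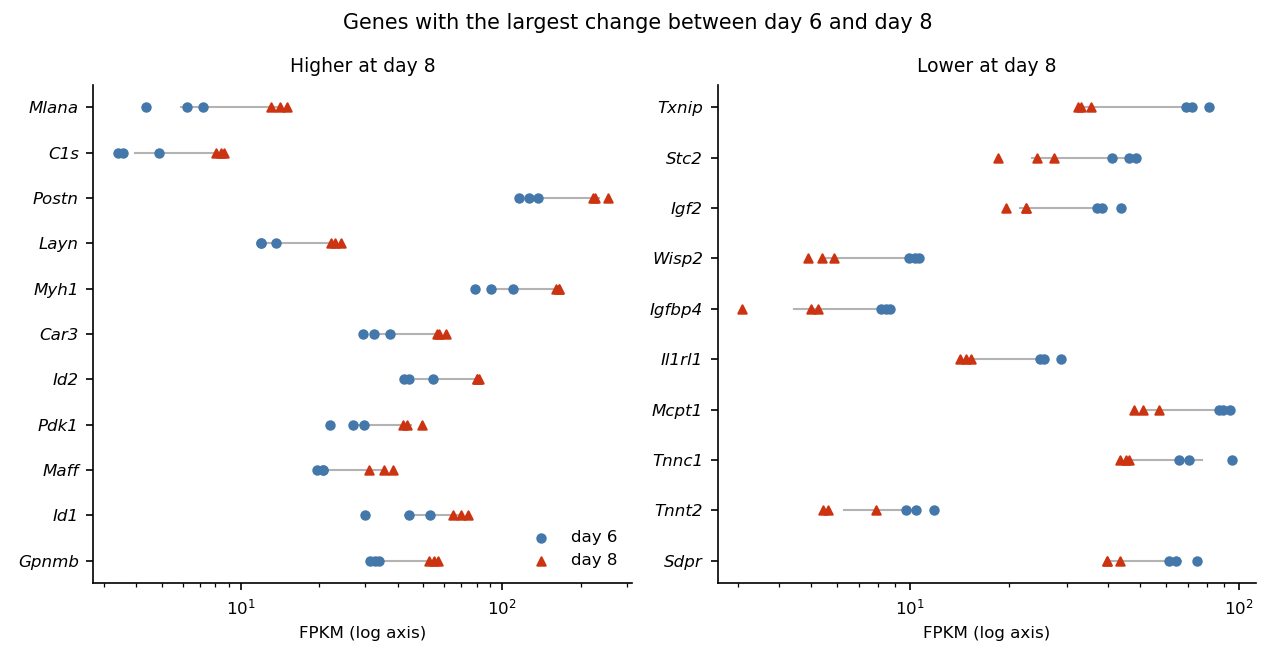
FPKM (log axis) of 11 of the 12 largest rises and 10 of the 12 largest falls at day 8 in each library, with blue circles for day 6, red triangles for day 8 and grey lines joining the means. In none of the 21 genes do the 3 libraries of day 6 overlap with the 3 of day 8, which the rule for naming them required, and the longest line among the falls is that of Txnip.

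Id1 and Id2, which bind basic helix-loop-helix factors and keep them off DNA, rose together. Id2 was at 54.5, 42.4 and 43.96 FPKM at day 6 and 81.5, 80.4 and 80.2 FPKM at day 8. Its day 8 values lay close together and above all 3 of day 6, a change of 0.78 ± 0.14 (adjusted p = 0.00154). Id1 was at 53.1, 44.3 and 29.98 FPKM at day 6 and 65.2, 69.5 and 74.2 FPKM at day 8, with day 6 replicate 3 well under the other libraries of that day, and changed by 0.74 ± 0.18 (adjusted p = 0.0416). Its call was lost without day 6 replicate 2 or 3 or any 1 day 8 library (adjusted p 0.0908 to 0.307). Id3 measured 181 ± 19.3 and 231 ± 7.59 FPKM at the 2 days (0.36 ± 0.10, adjusted p = 0.113), short of the threshold. Among 15 tested readouts of Notch, Id and TGF-beta signalling, 3 rose, Id1 and Id2 among them, and none fell. Of all genes 0.716% rose and 0.727% fell, and the list's median was 0.02. Both Id genes were above these levels in unstarved cells (204 ± 28.9 and 232 ± 11.7 FPKM).

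Maff, a small Maf transcription factor, went from 20.3 ± 0.608 to 34.9 ± 3.73 FPKM (0.75 ± 0.13, adjusted p = 0.00233). The ETS factor Etv4, induced by ERK signalling, went from 9.17 ± 1.32 to 14.4 ± 2.37 FPKM (0.59 ± 0.15, adjusted p = 0.0368). These were the 2 of 32 tested immediate early and ERK feedback genes that rose, and none fell, beside 0.716% and 0.727% of all genes. Etv4's call was lost without any 1 of the day 6 libraries or without day 8 replicate 2 or 3 (adjusted p 0.0602 to 0.293). Maff's call held without any 1 library and was lost without replicate 1 of every group (adjusted p = 0.168). Mlana, a melanosome protein, was at 6.26, 4.36 and 7.196 FPKM at day 6 and 14.1, 13.1 and 15.02 FPKM at day 8 (1.14 ± 0.17, adjusted p = 0.000603) and was listed at 0 in the unstarved libraries. Gpnmb, a glycoprotein of melanosomes and lysosomes, was at 31.4, 32.8 and 33.9 FPKM at day 6 and 52.7, 56.7 and 54.9 FPKM at day 8 (0.73 ± 0.10, adjusted p = 0.000117). Neither gene's days overlapped. The call for Mlana was lost with a pseudocount of 0.1 (adjusted p = 0.0527). Slco1a2, below the level the naming rule asked for and named after its values were seen, was at 2.21, 1.88 and 2.198 FPKM at day 6 and 6.39, 5.54 and 6.38 FPKM at day 8. Its 3 day 8 libraries were all above 5 FPKM and none of day 6 was, a change of 1.20 ± 0.13 (adjusted p = 5.48e-06).

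Among the largest falls was that of Txnip. This protein, which binds thioredoxin and restrains glucose uptake, was at 80.9, 68.9 and 71.95 FPKM at day 6 and 32.4, 35.4 and 33.01 FPKM at day 8, a fall of 1.11 ± 0.19 on the log2 scale (adjusted p = 0.0013) without overlap. Of 27 tested FoxO and growth factor withdrawal genes Txnip was the only one called, and the list's median was -0.066. In 7 of the 27 every day 8 library was under every day 6 library and in none above, beside 7.9% and 8.47% of all genes. The secreted glycoprotein stanniocalcin 2 (Stc2), the 1 called gene among 21 ATF4 stress response genes, was at 41.1, 48.6 and 46.4 FPKM at day 6 and 18.6, 24.3 and 27.5 FPKM at day 8 (-0.94 ± 0.15, adjusted p = 0.000812). Txnip and Stc2 do not overlap between the days.

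A growth factor and a binding protein of its family were among the falls. Igf2, the insulin-like growth factor, was at 43.8, 37.05 and 38.4 FPKM at day 6 and 19.6, 22.5 and 22.5 FPKM at day 8, and every day 8 library was lower (-0.85 ± 0.16, adjusted p = 0.0032). The call for Igf2 was lost without replicate 1 of every group (adjusted p = 0.145). Igfbp4, which binds insulin-like growth factors, was at 8.45, 8.67 and 8.18 FPKM at day 6 and 4.99, 5.25 and 3.08 FPKM at day 8 (-0.82 ± 0.15, adjusted p = 0.00402). Its lowest value was in the shallowest library, day 8 replicate 3, and it was still called without that library, but not in a fit of the 6 libraries alone (adjusted p = 0.0746). Wisp2, a matricellular protein of the CCN family, went from 10.3 ± 0.354 to 5.38 ± 0.5005 FPKM (-0.83 ± 0.20, adjusted p = 0.036). Leaving out any 1 of the 6 libraries lost the call for Wisp2 (adjusted p 0.0817 to 0.181), and likewise that for Sdpr, a protein of caveolae, which went from 66.5 ± 6.93 to 40.9 ± 2.15 FPKM (adjusted p = 0.0467, and 0.086 to 0.227 with a library left out). The IL-33 receptor Il1rl1 fell from 26.3 ± 2.102 to 14.8 ± 0.607 FPKM (-0.79 ± 0.14, adjusted p = 0.00282) and the mast cell type protease Mcpt1 from 90.2 ± 3.34 to 52 ± 4.63 FPKM (-0.79 ± 0.15, adjusted p = 0.005). Both calls held without any 1 library, and that for Mcpt1 was lost with a pseudocount of 0.1 (adjusted p = 0.181).

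Mcpt1, Myh1 and Slco1a2 belong to families of near-identical neighbours, and Pgam1, Pgk1, Aldoa and Gapdh have processed pseudogenes. The counting rules are not given in the sources used here, so their levels may hold or lack shared reads.

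The fitted changes of glycolysis genes all had 1 direction. Of 14 tested members 5 rose and none fell, all 14 fitted changes were positive, and the median was 0.316 against 0.0024 for all genes. In 12 of the 14 every day 8 library was above every day 6 library, where 8.47% of all genes showed that pattern and 7.9% the opposite one. By order of the pathway, the glucose transporter Slc2a1 measured 19.1 ± 2.85 FPKM at day 6 and 25.8 ± 2.91 at day 8 (0.41 ± 0.15, adjusted p = 0.26), and hexokinase Hk2 13.7 ± 2.25 and 19.3 ± 1.82 (0.47 ± 0.17, adjusted p = 0.257). Neither passed, nor did Hk1 (0.02 ± 0.11, adjusted p = 0.999). Gpi, which turns glucose phosphate into fructose phosphate, was at 286, 328 and 330.5 FPKM at day 6 and 383, 417 and 378 FPKM at day 8. Every day 8 value was higher, by 0.32 ± 0.07 in the fit (adjusted p = 0.0198).

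Of the phosphofructokinases, which commit sugar to glycolysis, Pfkp rose from 27.1 ± 0.722 to 33.7 ± 1.35 FPKM (0.30 ± 0.07, adjusted p = 0.0339), Pfkl stood at 0.39 ± 0.11 (adjusted p = 0.0816) and Pfkm at 0.03 ± 0.08 (adjusted p = 0.999). Aldolase A (Aldoa), which splits the sugar, was at 1735, 1783 and 1876 FPKM at day 6 and 2304, 2371 and 2180.0 FPKM at day 8 (0.34 ± 0.08, adjusted p = 0.0211). The first ATP-forming enzyme, Pgk1, was at 706, 829 and 848 FPKM at day 6 and 1080.0, 1083 and 1012 FPKM at day 8, the largest called change of the list (0.42 ± 0.08, adjusted p = 0.00296). Phosphoglycerate mutase (Pgam1) was at 460.1, 488 and 499 FPKM at day 6 and 621, 597 and 628 FPKM at day 8 (0.35 ± 0.06, adjusted p = 0.00101). In Aldoa, Pgk1 and Pgam1 the days did not overlap. The lactate dehydrogenase Ldha measured 1437 ± 134 and 1779 ± 40.03 FPKM (0.31 ± 0.09, adjusted p = 0.103). Gapdh, Pkm and Eno1 had log2 changes of 0.23 ± 0.08, 0.24 ± 0.07 and 0.19 ± 0.09 (adjusted p = 0.193, 0.123 and 0.462). The muscle enolase Eno3, outside the list and named after its values were seen, fell from 39.1 to 29.01 FPKM (-0.43 ± 0.10, adjusted p = 0.021).

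The calls for Pgk1 and Pgam1 held without any 1 of the 6 libraries but not in a fit of those 6 alone (adjusted p = 0.108 and 0.0667), nor that for Pgam1 with FPKM rescaled to 1 sum (0.0665), while those for Gpi, Aldoa and Pfkp did not. Gpi was lost without day 6 replicate 1 or day 8 replicate 1 or 2 (with an adjusted p of 0.0504 to 0.169), Aldoa without these or day 6 replicate 2 (adjusted p 0.0903 to 0.12), and Pfkp without any 1 library (adjusted p 0.0531 to 0.154). The number of glycolysis genes called was 2 without replicate 1 of every group (the deepest library at both days), 2 with FPKM rescaled to 1 sum and 0 in a fit of the 6 libraries alone, while the list's median stayed between 0.265 and 0.346 over the 18 alternatives.

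Hypoxia-type genes are targets that the hypoxia-inducible factors are known to switch on when oxygen is low. Of 22 tested 4 rose and none fell, beside 0.716% and 0.727% of all genes, with a median of 0.171. In 10 every day 8 library was above every day 6 library and in 1 every one was below, beside 8.47% and 7.9% of all genes. Pdk1, the kinase that turns pyruvate dehydrogenase off, was at 21.9, 29.7 and 26.97 FPKM at day 6 and 49.5, 43.2 and 41.9 FPKM at day 8 (0.76 ± 0.15, adjusted p = 0.006). Carbonic anhydrase 9 (Car9), which acidifies the outside of the cell, was at 415, 392 and 385 FPKM at day 6 and 531, 522 and 522 FPKM at day 8 (0.40 ± 0.09, adjusted p = 0.0164). The repressor Bhlhe40, which also acts in the circadian clock, was at 14.9, 14.3 and 16.8 FPKM at day 6 and 27.4, 25.6 and 22.8 FPKM at day 8 (0.68 ± 0.10, adjusted p = 0.000342). In none of the 3 did the days overlap. The mitochondrial protein Fam162a went from 81.6 ± 7.76 to 126 ± 7.92 FPKM (0.62 ± 0.14, adjusted p = 0.0198). Pdk1 lost its call without replicate 1 of either day (adjusted p 0.0555 to 0.067), and Car9 and Fam162a lost theirs without day 6 replicate 2 or 3 or any 1 day 8 library (adjusted p 0.0578 to 0.0798 and 0.0557 to 0.112). Without day 8 replicate 1 only 1 of the 22 was called.

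Other members of the hypoxia-type list did not pass the test. The angiogenic factor Vegfa was at 354, 359 and 366 FPKM at day 6 and 329, 354 and 343 FPKM at day 8, with overlap (-0.07 ± 0.10, adjusted p = 0.999). Pfkfb3, which makes the activator of phosphofructokinase, had a change of -0.23 ± 0.19 (adjusted p = 0.874) and Ero1a, an oxidase of the endoplasmic reticulum, one of 0.52 ± 0.22 (adjusted p = 0.419). The metallothionein Mt1 had the largest fitted change of the list, 1.78 ± 0.70, with so wide an error that it did not pass (adjusted p = 0.346). Enzymes downstream of pyruvate gave no call at all: 0 of 20 genes of the tricarboxylic acid cycle passed (median -0.06), as did 0 of 40 of the respiratory chain (median 0.011). At an unadjusted p under 0.05 in limma there were 1 and 0.

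**Figure D2:**
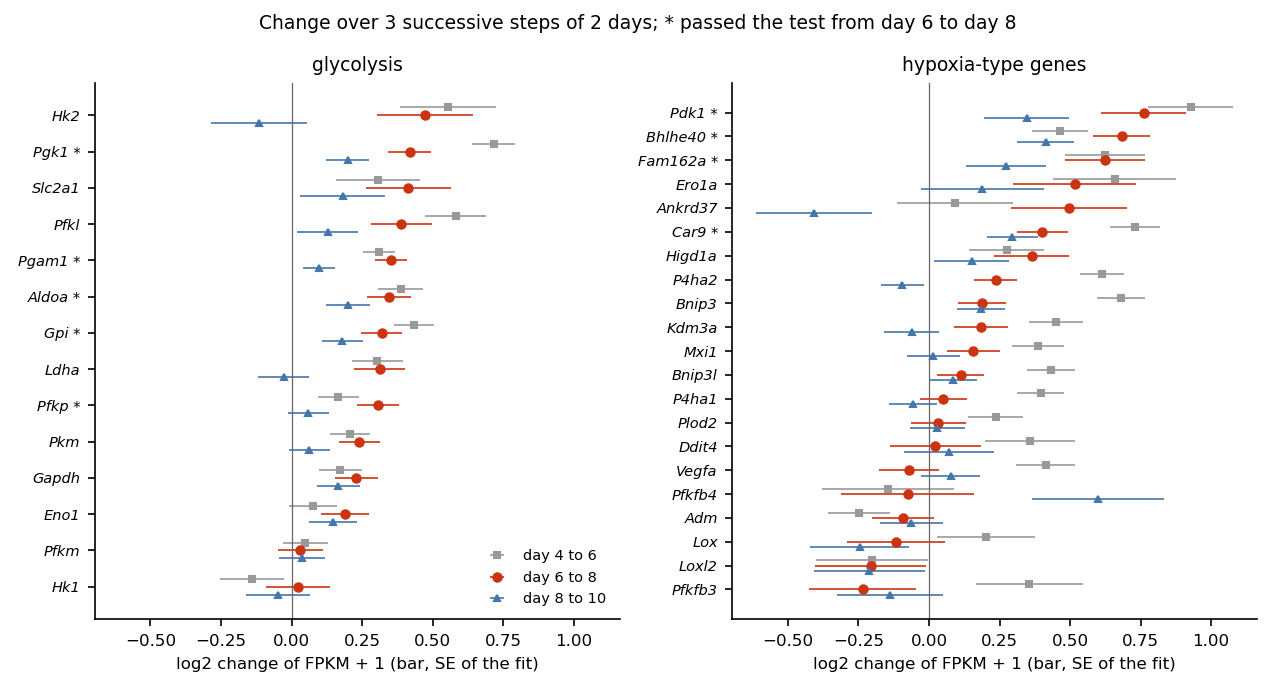
Log2 change of FPKM + 1 (x axis, bar = SE of the fit) of each tested glycolysis gene (left) and hypoxia-type gene (right) from day 4 to 6 (grey squares), day 6 to 8 (red circles) and day 8 to 10 (blue triangles), which share libraries. Genes with an asterisk rose from day 6 to 8, Mt1 is left out for its wide error, and all 14 red circles on the left lie above 0.

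The promoters of called members of these 2 lists are shown because the hypoxia-inducible factors are known to bind a short core motif, ACGTG. All 14 glycolysis changes were positive, while the hypoxia-type list held 16 positive and 6 negative ones. The search covered the 250 bases before the transcription start in the RefSeq promoter table (build GRCr8), on both strands, and a CACGTG palindrome, the E-box also bound by other factors, counts on each strand. Among the called genes, Pgk1 and Aldoa are not in the search for want of an entry in that table. All 7 called genes of the 2 lists with an entry in the table were searched (Gpi, Pfkp, Pgam1, Car9, Pdk1, Bhlhe40 and Fam162a), and 3 held the motif. Positions count back from the start, and capitals mark the motif on either strand. The sequences of those 3 are, 5′ to 3′ along the gene:
Pgam1 (chr1:250672902-250673151, + strand): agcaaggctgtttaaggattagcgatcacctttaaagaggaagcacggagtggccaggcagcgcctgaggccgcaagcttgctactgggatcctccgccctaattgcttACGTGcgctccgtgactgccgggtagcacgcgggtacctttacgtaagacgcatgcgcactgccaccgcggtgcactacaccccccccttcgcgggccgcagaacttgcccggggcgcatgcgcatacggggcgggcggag
Bhlhe40 (chr4:143174200-143174449, + strand): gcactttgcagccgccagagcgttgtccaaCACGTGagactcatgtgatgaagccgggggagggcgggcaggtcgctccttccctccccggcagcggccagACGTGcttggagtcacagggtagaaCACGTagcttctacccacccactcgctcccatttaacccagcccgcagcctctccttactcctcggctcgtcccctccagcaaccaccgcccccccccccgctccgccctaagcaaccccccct
Fam162a (chr11:78186051-78186300, + strand): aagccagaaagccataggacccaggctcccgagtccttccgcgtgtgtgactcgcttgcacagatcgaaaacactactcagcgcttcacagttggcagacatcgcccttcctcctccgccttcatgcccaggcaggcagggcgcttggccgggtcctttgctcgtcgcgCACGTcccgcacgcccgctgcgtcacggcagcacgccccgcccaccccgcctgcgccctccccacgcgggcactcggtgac

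Pgam1 held 1 match, beginning at position -141, and Fam162a held 1 at -81. Bhlhe40 held 4, at -220, -219, -149 and -124, of which the first pair is the same palindrome read on both strands. The motif was in 16.6% of the 33469 promoters of the table, in 24.2% of the 6675 that belong to tested genes, in 16 of the 26 found for tested members of the 2 lists (61.5%) and in 3 of the 7 that rose (42.9%). A match in so short a window is a description of letters, not of binding. The hypoxia-type genes were listed as targets of the hypoxia-inducible factors. The share among list members therefore tells nothing about the step from day 6 to day 8.

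Proteases, their inhibitors and other factors that senescent cells secrete went both ways. Of 23 tested, 4 rose and 3 fell, beside 0.716% and 0.727% of all genes, with a median of -0.077. The receptor of urokinase (Plaur) rose from 21.9 to 31.6 FPKM (0.51 ± 0.12, adjusted p = 0.0203). Urokinase itself (Plau) was at 3.96, 3.54 and 4.17 FPKM at day 6 and 2.15, 1.88 and 1.14 FPKM at day 8, a fall of 0.86 ± 0.14 on the log2 scale (adjusted p = 0.000812) without overlap. The call for Plau was lost in a fit of the 6 libraries alone (adjusted p = 0.0619). Osteopontin (Spp1), a secreted ligand of integrins, was at 51.4, 56.98 and 55.7 FPKM at day 6 and 109, 82.6 and 78.9 FPKM at day 8 (0.70 ± 0.10, adjusted p = 0.000207). Day 8 replicate 1 was the highest, and all 3 were above day 6. The adhesion molecule Icam1 rose from 44.6 to 61.3 FPKM (0.45 ± 0.08, adjusted p = 0.00129). The chemokine Cxcl12 was at 55.2, 54.3 and 57.7 FPKM at day 6 and 35.8, 36.8 and 37.9 FPKM at day 8, lower in every day 8 library (-0.58 ± 0.08, adjusted p = 0.00024). The cytokine Il6, often used as a mark of senescence, was at 8.74, 12.3 and 8.62 FPKM at day 6 and 7.29, 7.97 and 8.98 FPKM at day 8 with overlap (-0.25 ± 0.18, adjusted p = 0.836).

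Fibrillar collagens fell while periostin rose. Of 9 tested collagen genes 3 fell and none rose, the median was -0.275, and 7 had every day 8 library under every day 6 library, beside 7.9% of all genes. Col1a1, a chain of type I collagen, was at 1741, 1566 and 1855 FPKM at day 6 and 1114, 1260.0 and 1150.0 FPKM at day 8 (-0.55 ± 0.13, adjusted p = 0.0238). Col3a1 was at 1264, 1326 and 1268 FPKM at day 6 and 970.0, 1008 and 993 FPKM at day 8 (-0.38 ± 0.07, adjusted p = 0.00552), and Col5a2 at 702, 702 and 743 FPKM at day 6 and 556, 533 and 579.8 FPKM at day 8 (-0.36 ± 0.07, adjusted p = 0.005). All 3 were lower in every library of day 8. From day 4 to day 6 they had changed by -0.695 ± 0.128, -0.65 ± 0.07 and -0.44 ± 0.07. The call for Col1a1 was lost without day 6 replicate 1 or 3 or day 8 replicate 1 or 3 (with an adjusted p of 0.0997 to 0.13). With FPKM rescaled to 1 sum, 1 of the 3 collagens was called. In a fit of the 6 libraries alone Col3a1 and Col5a2 were lost (adjusted p = 0.0667 for each). Bmp1 and Adamts2, which trim procollagens and were named after their values were seen, fell by 0.39 ± 0.09 and 0.43 ± 0.11 (adjusted p = 0.0147 and 0.0483). Outside the collagens, 1 of 28 tested matrix genes rose (Postn) and none fell. Fibronectin (Fn1) was at 5799, 5418 and 7068 FPKM at day 6 and 7057, 6803 and 7461 FPKM at day 8 with overlap (0.23 ± 0.17, adjusted p = 0.826), and the TGF-beta and YAP target Ctgf at 3945, 4027 and 3962 FPKM at day 6 and 4827, 4499 and 4666 FPKM at day 8 without overlap but short of the threshold (0.23 ± 0.08, adjusted p = 0.198). Of 16 YAP targets only Ankrd1 was called, a fall from 33.3 ± 2.03 to 22.7 ± 1.33 FPKM (-0.53 ± 0.10, adjusted p = 0.00431). None of 34 actin cytoskeleton and SRF target genes passed in limma (3 at an unadjusted p under 0.05), the smooth muscle actin Acta2 included (0.17 ± 0.12, adjusted p = 0.837).

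In the muscle list the called genes only fell, as did the muscle enolase Eno3 outside it, while Myh1, also outside it, rose. Myh1, a myosin heavy chain of fast muscle outside the muscle list, was at 78.8, 91.1 and 111 FPKM at day 6 and 161, 165 and 165 FPKM at day 8, and all its day 8 libraries were higher (0.82 ± 0.15, adjusted p = 0.0027). Of 14 tested muscle genes none rose and 2 fell, with a median of 0.099. The troponin C of slow and heart muscle (Tnnc1) was at 70.8, 95.2 and 65.9 FPKM at day 6 and 43.4, 45.3 and 46.3 FPKM at day 8 (-0.75 ± 0.16, adjusted p = 0.00992) and heart troponin T (Tnnt2) at 11.8, 10.4 and 9.75 FPKM at day 6 and 5.42, 7.899 and 5.62 FPKM at day 8 (-0.69 ± 0.16, adjusted p = 0.0211). Neither overlapped between the days. Tnnc1 was lost without day 6 replicate 2 or day 8 replicate 1 (adjusted p 0.0569 to 0.116), and Tnnt2 without day 6 replicate 1 or 2 or day 8 replicate 1 or 3 (with an adjusted p of 0.0766 to 0.131). Carbonic anhydrase 3 (Car3), an enzyme abundant in muscle and fat, was at 32.4, 37.2 and 29.4 FPKM at day 6 and 56.4, 57.5 and 61.05 FPKM at day 8 (0.81 ± 0.14, adjusted p = 0.00154). In this bulk RNA, fewer cells of a type and less RNA per cell cannot be told apart.

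Lysosomal genes shifted by little. Of 40 tested hydrolases 4 rose and none fell, with a median of 0.104, and 16 had every day 8 library above every day 6 library against 3 with the opposite, beside 8.47% and 7.9% of all genes. The peptidase Dpp7 went from 85.7 ± 1.34 to 109 ± 3.95 FPKM (0.34 ± 0.08, adjusted p = 0.0173), the mannosidase Man2b1 from 70.4 ± 3.74 to 86.7 ± 4.66 (0.30 ± 0.07, adjusted p = 0.0182) and the glycogen-degrading glucosidase Gaa from 138 ± 4.44 to 168 ± 8.87 (0.28 ± 0.07, adjusted p = 0.0488). None of these 3 calls held each time a library was left out. Man2b1 was lost without day 6 replicate 1 or 2 or day 8 replicate 2 or 3 (with an adjusted p of 0.0877 to 0.123), Dpp7 without any library but day 8 replicate 3 (0.054 to 0.0965) and Gaa without any 1 (0.0792 to 0.275). With FPKM rescaled to 1 sum no hydrolase was called. Cathepsin D (Ctsd), the most studied lysosomal protease, was at 675, 680.2 and 658 FPKM at day 6 and 687, 719.6 and 669 FPKM at day 8 with overlap (0.04 ± 0.06, adjusted p = 0.983).

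Of 26 tested lysosomal membrane proteins Gpnmb alone rose, with a list median of 0.058. Lamp1 and Lamp2, the main proteins of that membrane, were higher in each day 8 library than in any of day 6 but did not pass (0.20 ± 0.08 and 0.16 ± 0.11, adjusted p = 0.419 and 0.758). The vacuolar ATPase, the proton pump of the lysosome, had 1 rise among 18 tested subunits, 17 positive changes and a median of 0.164, and 11 of the 18 had every day 8 library above every day 6 library, beside 8.47% of all genes. The called gene was the accessory subunit Atp6ap1, at 231, 213 and 210.5 FPKM at day 6 and 290.4, 269 and 259 FPKM at day 8 (0.32 ± 0.06, adjusted p = 0.00274). Every day 8 library was above every day 6 library. The call held without any 1 of them, and was lost in a fit of the 6 libraries alone (adjusted p = 0.119) and with FPKM rescaled to 1 sum (adjusted p = 0.291). No gene among 40 of autophagy passed in limma (median 0.021), with 4 at an unadjusted p under 0.05.

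**Figure D3:**
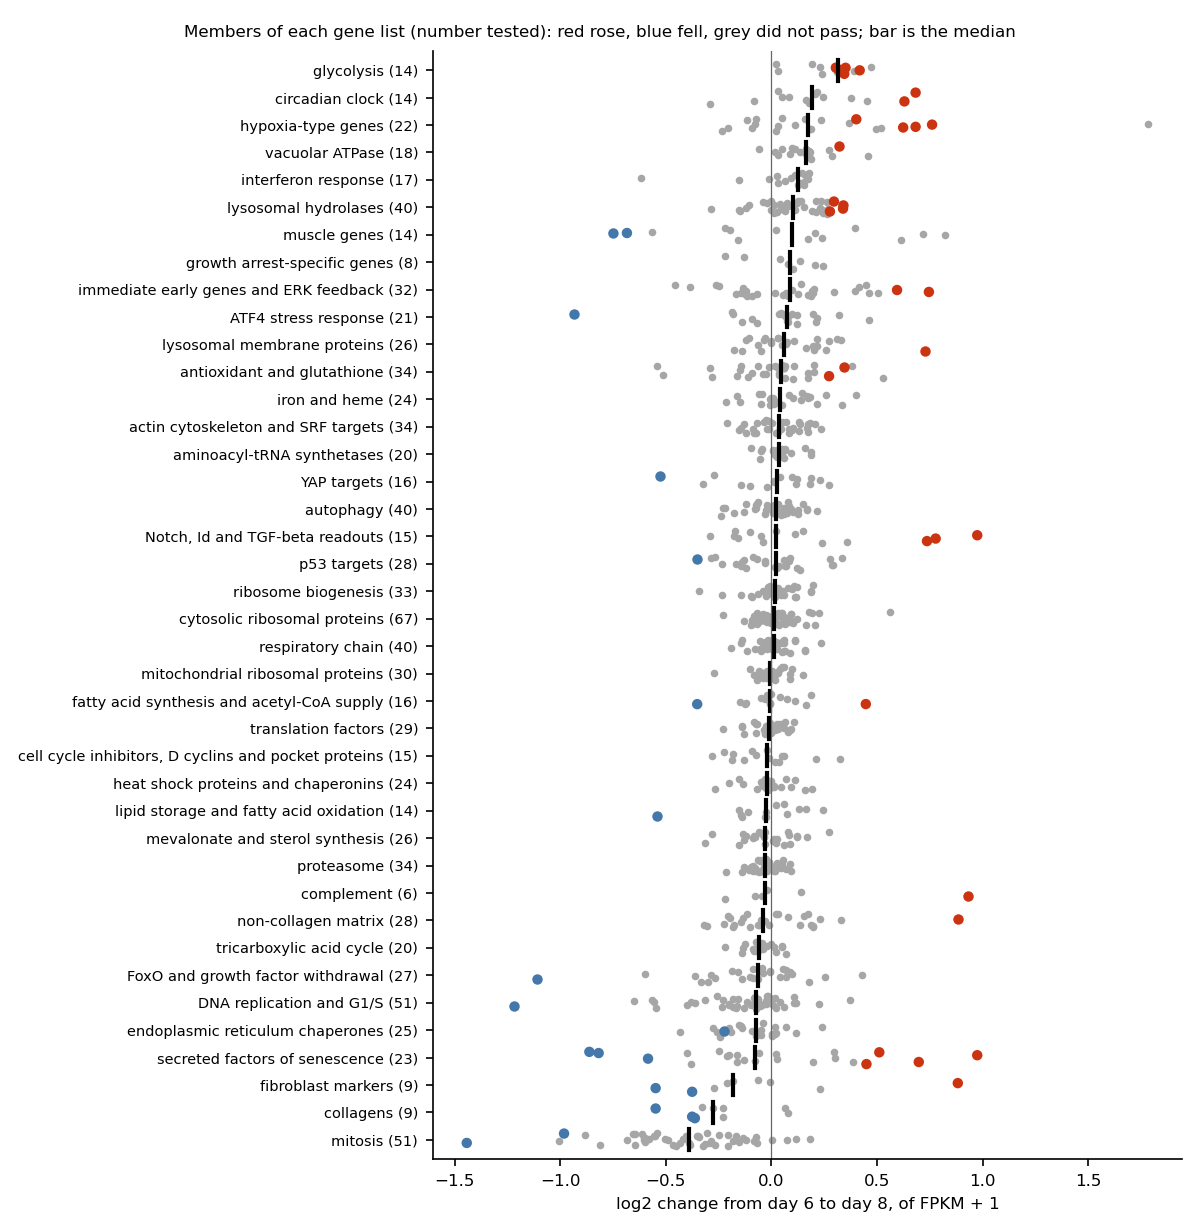
Log2 change from day 6 to day 8 of FPKM + 1 (x axis) of the tested members of each gene list with at least 6 of them (y axis, number tested in brackets), with red for genes that rose, blue for genes that fell, grey for those that did not pass and a black bar for the list's median. Glycolysis has the highest median (0.316) and mitosis the lowest (-0.392), and most points in the other lists are grey and near 0.

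Genes of cell division were already low at day 6, and most had lower values at day 8, although few passed the test. Of 51 tested mitosis genes 2 fell and none rose, with a median of -0.392, and 31 had every day 8 library under every day 6 library, beside 7.9% of all genes. The filter used the mean over all 30 libraries, so genes such as Mki67 (52.3 ± 10.7 FPKM unstarved) were tested although below 1 FPKM at both days. Of all 8940 tested genes 7224 had a mean of at least 5 FPKM over the 6 libraries, so the count and the share cover genes of unlike level. Ube2c, which works with the anaphase-promoting complex, was at 2.66, 4.49 and 2.44 FPKM at day 6 and 0.455, 0.354 and 0.742 FPKM at day 8 (-1.44 ± 0.35, adjusted p = 0.0311). Prc1, which bundles the midzone of the spindle, went from 2.66 ± 0.648 to 0.844 ± 0.284 FPKM (-0.98 ± 0.25, adjusted p = 0.0416). In unstarved cells Ube2c stood at 300.2 ± 14.3 FPKM. The proliferation marker Mki67 was at 0.738, 0.546 and 0.473 FPKM at day 6 and 0.117, 0.165 and 0.0992 FPKM at day 8 and cyclin A2 (Ccna2) at 1.46, 1.07 and 1.19 FPKM at day 6 and 0.323, 0.553 and 0 FPKM at day 8. Both were lower in every day 8 library, and neither passed on the log2(FPKM + 1) scale (-0.49 ± 0.21 and -0.81 ± 0.25, adjusted p = 0.45 and 0.134).

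Of 51 tested G1/S and DNA replication genes, 1 fell (Rrm2) and none rose, with a median of -0.073. Rrm2, the small subunit of ribonucleotide reductase, was at 6.87, 6.67 and 4.57 FPKM at day 6 and 1.65, 1.6 and 2.86 FPKM at day 8 (-1.22 ± 0.29, adjusted p = 0.0244). The polymerase clamp Pcna was at 64.2, 67.7 and 61.4 FPKM at day 6 and 67.4, 66.4 and 64.9 FPKM at day 8 with overlap (0.04 ± 0.09, adjusted p = 0.999). Ube2c and Prc1 lost their calls without any library but day 6 replicate 3 (adjusted p 0.0614 to 0.207 and 0.0592 to 0.234), and Rrm2 without day 6 replicate 1 or 2 or day 8 replicate 1 or 2 (with an adjusted p of 0.12 to 0.132). With a pseudocount of 0.1 in place of 1, which weighs low genes more, 6 mitosis genes were called and the list's median was -0.877. None of 15 cell cycle inhibitors, D cyclins and pocket proteins passed in limma, with 2 at an unadjusted p under 0.05. The CDK inhibitor Cdkn1a was at 239, 208 and 220.2 FPKM at day 6 and 224, 207 and 203 FPKM at day 8 and Cdkn1b at 60.3, 69.1 and 63.7 FPKM at day 6 and 53.7, 59.95 and 55.4 FPKM at day 8. Cdkn1a overlapped between the days and Cdkn1b did not (-0.07 ± 0.13 and -0.19 ± 0.10, adjusted p = 0.999 and 0.675). Cyclin D1 (Ccnd1) and Myc had changes of 0.05 ± 0.10 and -0.25 ± 0.17 (adjusted p = 0.999 and 0.784). Of 28 p53 targets the kinase Plk2 alone was called, a fall from 40.4 ± 2.76 to 31.3 ± 1.94 FPKM (-0.35 ± 0.08, adjusted p = 0.0116), which was lost without day 6 replicate 3 or day 8 replicate 1 (adjusted p 0.0916 to 0.0965).

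Of the clock genes 2 of 14 rose and none fell, beside 0.716% and 0.727% of all genes, with a median of 0.191. Nr1d1, a nuclear receptor that represses clock genes, was at 14.3, 11.96 and 12.97 FPKM at day 6 and 19.2, 22.1 and 21.1 FPKM at day 8. All day 8 libraries were higher (0.63 ± 0.10, adjusted p = 0.0012), and the other called gene was Bhlhe40. Per2, a core repressor, measured 3.76 ± 0.541 and 5.49 ± 0.349 FPKM (0.45 ± 0.12, adjusted p = 0.0693). The labels give no hour of harvest.

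In lipid and redox metabolism single enzymes moved. The uncoupling protein Ucp2, a carrier of the inner mitochondrial membrane, was at 51.2, 53.2 and 49.4 FPKM at day 6 and 35.8, 36.3 and 32.5 FPKM at day 8, lower in every day 8 library (-0.54 ± 0.08, adjusted p = 0.000366). The acyl-CoA synthetase Acsl1 went from 26.8 ± 3.098 to 36.8 ± 0.892 FPKM (0.45 ± 0.10, adjusted p = 0.0153) and the desaturase Fads1 from 26.1 ± 2.34 to 20.3 ± 1.69 FPKM (-0.35 ± 0.09, adjusted p = 0.0339). None of 26 genes of sterol synthesis passed in limma (1 at an unadjusted p under 0.05), among them Hmgcs1 (-0.15 ± 0.08, adjusted p = 0.604). Of 34 antioxidant genes 2 rose, beside 0.716% of all genes. They were Gclc, the limiting enzyme of glutathione synthesis (27.8 ± 0.369 to 35.6 ± 1.66 FPKM, adjusted p = 0.0365), and the sulfiredoxin Srxn1 (30.7 ± 1.01 to 37.4 ± 2.88 FPKM, adjusted p = 0.0118). Acsl1 was lost without day 6 replicate 1 or 2 or day 8 replicate 1 or 2 (with an adjusted p of 0.0516 to 0.11), Fads1 without day 6 replicate 2 or 3 or day 8 replicate 1 or 3 (0.13 to 0.22), Gclc without any 1 library (0.078 to 0.161) and Srxn1 without day 6 replicate 1 or day 8 replicate 3 (0.0841 to 0.131).

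The machinery of protein synthesis gave no call in limma, and at an unadjusted p under 0.05 its 5 lists held 0, 0, 1, 0 and 2 genes in the order given here. None of 67 cytosolic ribosomal proteins (median 0.012), 30 mitochondrial ribosomal proteins (-0.008), 33 ribosome biogenesis factors (0.016), 29 translation factors (-0.014) or 20 aminoacyl-tRNA synthetases (0.035) passed, and Rplp0, a protein of the ribosomal stalk, changed by 0.05 ± 0.10 (adjusted p = 0.999). Nor did any of 34 proteasome genes, 24 heat shock proteins and chaperonins, 17 interferon response genes, 24 genes of iron and heme or 8 growth arrest-specific genes, which held 1, 2, 2, 4 and 1 at an unadjusted p under 0.05. In 4 interferon and 7 iron and heme genes every day 8 library was above every day 6 library, beside 8.47% of all genes. None in these 2 lists had the opposite. Ifitm3, outside the interferon list and named after its values were seen, rose from 19.6 to 29.6 FPKM (0.57 ± 0.14, adjusted p = 0.0319). Of 25 chaperones of the endoplasmic reticulum, calreticulin (Calr) was called at the very edge of the threshold, at 690.1, 720.5 and 705 FPKM at day 6 and 597, 617 and 599 FPKM at day 8 (-0.22 ± 0.06, adjusted p = 0.05). It was lost without any 1 library (adjusted p 0.102 to 0.212). Of the 25 chaperones 8 were lower in every day 8 library than in any of day 6 and 1 was higher, beside 7.9% and 8.47% of all genes. Hspa5, the main chaperone of the endoplasmic reticulum, did not pass (-0.26 ± 0.08, adjusted p = 0.175), nor did Asns, a target of ATF4 (0.20 ± 0.08, adjusted p = 0.393). Igfbp3, which binds insulin-like growth factors, was below the level needed for the test.

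Where these genes stood before and after the step was read from the whole course. Of the 64 that rose, 46 (71.9%) stood above their unstarved level at day 4, and of the 65 that fell 37 (56.9%) did, beside 49.4% of all tested genes. Pgk1 was at 296 ± 13.3 FPKM at day 2, 482 ± 18.5 at day 4, 1216 ± 73.1 at day 10 and 596 ± 60.8 at day 16. Myh1 stood at 123 ± 13.1 FPKM at day 4, 226 ± 24.02 at day 10 and 34.4 ± 2.48 at day 16. Pgk1, Pdk1 and Myh1 had their highest group mean at day 10, while Mlana and C1s had theirs at day 16. The list medians from day 4 to day 6 were 0.305 for glycolysis, 0.405 for hypoxia-type genes, 0.15 for hydrolases and 0.198 for the vacuolar ATPase. For collagens and mitosis genes they were -0.44 and -1.144. Each had the same sign as from day 6 to day 8, and all but that of glycolysis were larger in size. Differences of list medians between the steps were not tested.

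**Figure D4:**
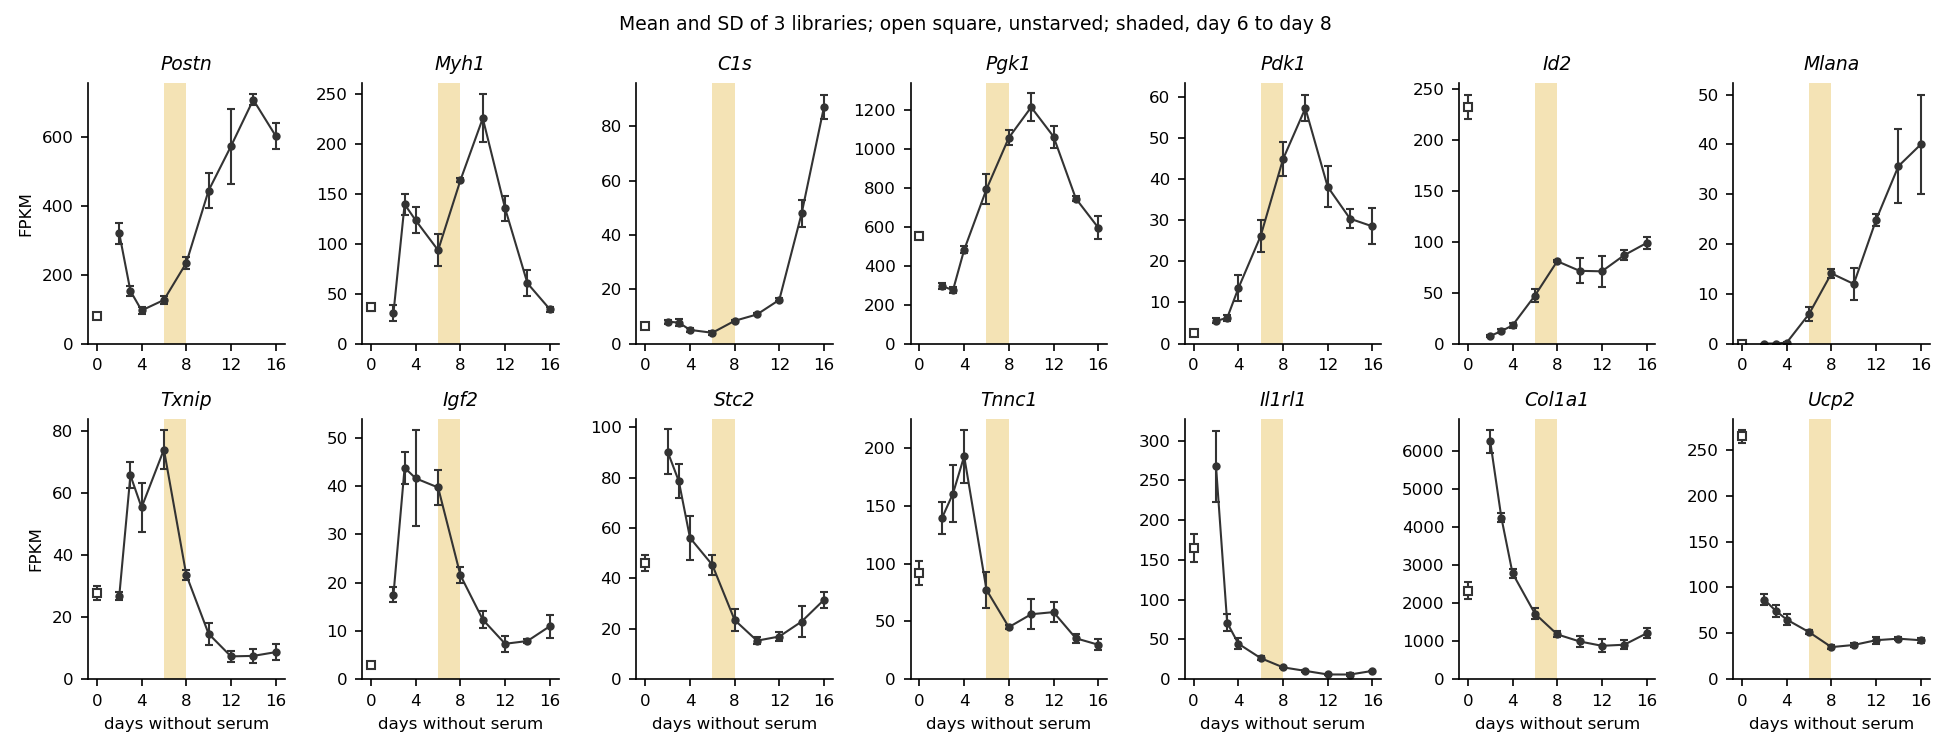
FPKM (y axis, linear from 0, mean and SD of 3 libraries) against days without serum (x axis) for 14 called genes, with the open square for unstarved cells and shading from day 6 to day 8. Txnip is highest at day 6 (73.9 FPKM) and Myh1 at day 10 (226 FPKM), while Col1a1 is highest at day 2.

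The contrast of day 10 with day 4, chosen after the data were seen, has none of the 6 libraries in its fold changes. Its libraries do enter the spread that the 1 model estimates for every contrast, so it is not independent of the calls. It called 1074 genes higher (12.0%) and 1040 lower (11.6%). Of the 64 that rose from day 6 to day 8, 62 were higher at day 10 than at day 4 and none was lower. Of the 65 that fell, 63 were lower and none was higher. Among them Postn differed by 2.2 ± 0.11 (adjusted p = 8.73e-14), Pgk1 by 1.33 ± 0.08 (adjusted p = 1.49e-12) and Txnip by -1.87 ± 0.19 (adjusted p = 2.76e-08).

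Set against the step from day 4 to day 6, of the same length, 66 genes changed differently from day 6 to day 8: the difference of the changes was positive in 43 (0.481%) and negative in 23 (0.257%). With FPKM rescaled to 1 sum, which moves the median of all genes in this contrast by -0.11 on the log2 scale, the split was 13 and 21, and with the upper quartile it was 37 and 30. The genes named from this contrast kept their direction under all 16 alternatives run for it. Txnip measured 55.3 ± 7.88, 73.9 ± 6.22 and 33.6 ± 1.62 FPKM at days 4, 6 and 8, and its change between the steps differed by -1.53 ± 0.32 (adjusted p = 0.0201). Bcl2l11, which promotes cell death, measured 3.81 ± 0.181, 10.1 ± 2.56 and 6.19 ± 0.932 FPKM, a difference of -1.77 ± 0.42 (adjusted p = 0.046), although its own change from day 6 to day 8 did not pass (-0.60 ± 0.24, adjusted p = 0.385). Both were highest in the middle. Mlana, nearly absent at day 4 (0.1803 ± 0.184 FPKM), rose less in the second step than in the first (-1.40 ± 0.30, adjusted p = 0.0231). The scavenger receptor Scara5 measured 6.26 ± 1.45, 17.3 ± 1.13 and 16.8 ± 1.17 FPKM at days 4, 6 and 8, a gain in the first step and none in the second (-1.39 ± 0.21, adjusted p = 0.00207). It was higher again later, at 82.9 ± 3.65 FPKM at day 16.

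In the other direction the 4 largest differences were those of Tnnt2, Nrn1, Spp1 and Myh1. Tnnt2 measured 48.5 ± 6.19 FPKM at day 4, and its fall was smaller in the second step (1.40 ± 0.27, adjusted p = 0.0101). Nrn1, neuritin, measured 36.7 ± 3.17, 23.5 ± 3.48 and 38.8 ± 3.76 FPKM (1.34 ± 0.21, adjusted p = 0.00207). Spp1 measured 80.3 ± 6.27 FPKM at day 4 and Myh1 123 ± 13.1, and each was at its lowest of the 3 days at day 6 (1.24 ± 0.17 and 1.22 ± 0.26, adjusted p = 0.00103 and 0.0201). Pgk1 and Pgam1 did not pass the test for a difference in pace between these steps: Pgk1 changed by 0.72 ± 0.08 from day 4 to 6 and the difference of the steps was -0.30 ± 0.13 (adjusted p = 0.531), and for Pgam1 the difference was 0.04 ± 0.10 (adjusted p = 1). The count of 66 was 22 without day 6 replicate 1, 22 without day 6 replicate 2, 29 without day 6 replicate 3, 37 without day 8 replicate 3 and 9 without replicate 1 of every group. Spp1 and Nrn1 were called under all 16 alternatives, and Scara5 under all but the last of these (adjusted p = 0.111). Txnip was lost without any 1 day 6 library (adjusted p 0.0673 to 0.176), Tnnt2 without day 6 replicate 2 or 3 (0.0673 to 0.0951), Myh1 without day 6 replicate 1 or 2 (0.104 to 0.242), Mlana without day 6 replicate 1 or 3 or day 8 replicate 2 (0.0508 to 0.217) and Bcl2l11 without any library but day 6 replicate 1 (0.0508 to 0.292). These 5 were also lost without replicate 1 of every group (adjusted p 0.242 for Txnip, 0.0627 for Tnnt2, 0.112 for Myh1, 0.322 for Mlana and 0.15 for Bcl2l11). With FPKM rescaled to 1 sum Tnnt2, Myh1 and Bcl2l11 were lost (0.104, 0.0595 and 0.063), and Bcl2l11 was lost in 10 of the 16 alternatives in all.

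Set against the following step, from day 8 to day 10, none changed more positively in the limma test (0.0%; 129 genes at an unadjusted p under 0.05) and 4 changed more negatively (0.0447%). Spp1 reached 376 ± 20.7 FPKM at day 10, so its rise was larger in the second step (-1.36 ± 0.17, adjusted p = 0.000199). Acss2, which makes acetyl-CoA from acetate, measured 44.1 ± 4.05, 43.7 ± 1.76 and 75.4 ± 0.674 FPKM at days 6, 8 and 10 (-0.79 ± 0.15, adjusted p = 0.0349). Fads1 and the actin-binding protein Lsp1 fell from day 6 to day 8 and measured 28.2 ± 0.968 and 56.7 ± 6.07 FPKM at day 10 (-0.81 ± 0.15 and -0.72 ± 0.13, adjusted p = 0.0349 and 0.0349). Lsp1 itself was at 75.04, 83.1 and 80.8 FPKM at day 6 and 50.8, 51.2 and 54.04 FPKM at day 8, without overlap. This count was 1 without day 6 replicate 2 or 3 or day 8 replicate 3, and 0 with FPKM rescaled to 1 sum, which moves the median of all genes in this contrast by 0.11. Spp1 was called without any 1 of the 6 libraries. Acss2 and Lsp1 were lost without any library but day 6 replicate 1 (adjusted p 0.0933 to 0.495 and 0.0955 to 0.212), and Fads1 without day 6 replicate 2 or 3 or day 8 replicate 1 or 3 (0.0933 to 0.495). Without replicate 1 of every group these 3 were lost too (0.0705, 0.0599 and 0.102 for Acss2, Lsp1 and Fads1), and without the mean-variance trend each was at 0.0561.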

How the data were processed

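Total RNA of cell pellets from 30 samples of the REF line was sequenced, after a check of RNA quality, per the labels' protocols. The submitters' processing notes name the build rn6 and the tools Cuffnorm 2.2.1, Cufflinks and TopHat2 2.1.1. The authors deposited FPKM per gene symbol. The annotation, strand handling, filters and scaling across libraries are not given in the sources used here. Groups follow the sample titles.

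From these values log2(FPKM + 1) was fitted in limma 3.58.1 (R 4.3.3), with the means of all 10 groups in 1 model over 30 libraries, empirical Bayes moderation, a mean-variance trend and no replicate block. Genes with a mean of at least 1 FPKM were kept. Tests were two-sided with Benjamini-Hochberg adjustment over all 8940 genes kept and a threshold of 0.05. With 3 libraries a group, an exact permutation test of 1 gene cannot go below 0.1, so none is given. Changes are log2 differences of FPKM + 1 with SE, and levels are means ± SD. The relative worth of 1 read was estimated from genes under 0.5 FPKM. The model was tested on simulated data.

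The named genes are the 12 largest rises and 12 largest falls with a mean of at least 5 FPKM over the 6 libraries and no overlap between the days, up to 4 called members of each of 45 gene lists with the smallest p, a set of anchors named whatever they did (such as Mki67, Ldha and Fn1), and the 4 largest differences in each direction for each contrast of steps. A few genes that this rule names are not reported here, although they stay in the fit and in the counts. Others are said to be named after their values were seen. These members, lists and rules were chosen with earlier results of these data known. One list member, Ca9, was matched as Car9 through its RefSeq synonym. Alternatives covered the pseudocount (0.1 and 0.5), the filter, the scaling, the libraries fitted, the trend, the replicate block and leaving out each library.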

Additional observations from a re-analysis of the deposited data

Results flagged for a closer look

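Differences between successive steps stood out because the difference of the changes itself passed the limma test over all genes. Against the step from day 4 to day 6, the change from day 6 to day 8 differed by -1.531 on the log2 scale for Txnip, -1.772 for Bcl2l11, -1.404 for Mlana and -1.389 for Scara5. In the other direction it differed by 1.396 for Tnnt2, 1.337 for Nrn1, 1.243 for Spp1 and 1.22 for Myh1. Against the step from day 8 to day 10 it differed by -1.364 for Spp1, -0.81 for Fads1, -0.785 for Acss2 and -0.722 for Lsp1. Groups of 3 libraries are too small for a check of single outlying values.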

How the results depend on the processing

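The direction of all 129 called genes was the same under the 18 alternatives. Their days did not overlap, so only the alternatives with another scaling could have turned it. Named genes that were not called are not part of that count. The calls for 26 held in all of them. The number of rises (64) was 37 with FPKM rescaled to a sum of 1000000, 36 in a fit of the 6 libraries alone and 40 without replicate 1 of every group. The number of falls (65) was 39 in the fit of the 6 libraries. With 1 of the 6 libraries left out, rises ran from 35 to 47 and falls from 30 to 50. The 66 genes that changed differently from the step before were 34 with the rescaled sum (13 positive, 21 negative), 9 without replicate 1 of every group and 22 to 53 with 1 library left out. The 4 that changed differently from the step after were 7 with no filter on low values, 0 with the rescaled sum, 12 with quantile normalization, 1 without the mean-variance trend and 1 to 4 with 1 library left out. The causes were not tested.

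Replicate numbers are shared by the groups, but the labels give them no meaning, so no pairing was assumed. Deviations of day 6 and day 8 libraries with the same number correlated by 0.314, 0.218 and 0.07 across genes, each above its correlations with the other numbers (at most 0.125). Over all 10 groups the mean correlations for replicates 1, 2 and 3 were 0.36, 0.093 and 0.17. This is only a hint of structure shared by number, which the main test leaves out. With the number as a replicate block in all 30 libraries, 113 genes rose, 112 fell, 133 differed from the step before and 12 from the step after. With the block in the 6 libraries alone, 30 rose and 33 fell.

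Read depth is not given by FPKM. Changes of genes near or below 1 FPKM, mitosis genes among them, rest on few reads. By the estimate from low genes the shallowest of the 6 libraries was day 8 replicate 3.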

Other observations

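Outside the gene lists, several called genes lie near pathways described above; they were chosen after their values were seen. Gys1, glycogen synthase, was at 36.8, 37.4 and 42.8 FPKM at day 6 and 53.8, 53.5 and 51.4 FPKM at day 8, higher in every day 8 library (0.43 ± 0.07, adjusted p = 0.00154, limma). Rcan1, an inhibitor of calcineurin, was at 34.97, 35.05 and 37.5 FPKM at day 6 and 63.8, 56.1 and 59.9 FPKM at day 8 (0.72 ± 0.10, adjusted p = 0.000111), also without overlap. Tgfa, a ligand of the EGF receptor, rose from 31.5 ± 2.28 to 45.2 ± 0.645 FPKM (0.51 ± 0.10, adjusted p = 0.00717), and its call was lost without day 6 replicate 2 (adjusted p 0.0582). Uap1l1, a relative of the enzyme that makes UDP-N-acetylglucosamine, rose from 15.4 ± 1.503 to 23.7 ± 1.78 FPKM (0.59 ± 0.10, adjusted p = 0.00144).

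The falls outside the lists included proteins of the cell surface. Itga7, an integrin chain that binds laminin, was at 66.1, 73 and 78.03 FPKM at day 6 and 47.4, 53.04 and 50.3 FPKM at day 8, lower in every day 8 library (-0.52 ± 0.09, adjusted p = 0.00109). Sdc1, a heparan sulfate proteoglycan, was at 70.6, 78.04 and 70.5 FPKM at day 6 and 53.7, 55.1 and 51.9 FPKM at day 8 (-0.44 ± 0.06, adjusted p = 0.000222), without overlap. The inflammasome sensor Nlrp3 was at 8.18, 8.68 and 8.03 FPKM at day 6 and 5.29, 5.27 and 4.62 FPKM at day 8, and the step changed it by -0.62 ± 0.11 (adjusted p = 0.00129). Tmsb10, a small actin-binding protein and one of the more abundant transcripts here, was at 4114, 4997 and 3886 FPKM at day 6 and 3005, 2938 and 2713 FPKM at day 8 (-0.58 ± 0.12, adjusted p = 0.00726).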
